A study of Mus musculus with 8 samples.

Results

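Genes that mark microglia or encode complement C1q, 8 in all, were followed in mouse visual cortex: C1qa, C1qb, C1qc, Csf1r, Ctss, Tyrobp, Cd68 and Aif1. They were taken by name, as every probe set annotated to 1 of these symbols after an update through Entrez identifiers. This gave 11 of the 12422 non-control probe sets on the array and 8 of 8251 named genes. C1qb, Csf1r and Cd68 had 2 probe sets and the others 1.

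All mice were wild-type C57Bl6, had 1 eye removed at postnatal day 20 and were killed at day 24, 4 days later. Deprived cortex is the visual cortex contralateral to the removed eye (4 arrays) and non-deprived cortex the visual cortex ipsilateral to it (4 arrays). Each group carries replicate numbers 1 to 4 in the titles. The labels name 4 mice, but the design text mentions pooling. Whether each array stands for a single mouse is therefore not given, and the p-values measure only the spread between these arrays, which may be technical. Cortex of unoperated mice was not analysed here, and in a piece of cortex fewer microglia and less RNA per microglial cell cannot be told apart.

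C1q is the recognition molecule of the classical complement pathway. It is built from A, B and C chains, products of C1qa, C1qb and C1qc, and in the brain it is made mainly by microglia. Microglia are the resident macrophages of the brain. They depend on signals through the receptor encoded by Csf1r, and C1q together with the downstream component C3 is known for tagging synapses that microglia remove during development of the visual thalamus. The transcription factor PU.1, encoded by Spi1, is needed for the microglial lineage and binds purine-rich sites whose core is GGAA.

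The promoters of C1qb and C1qc are shown because the C1q genes are neighbours and their signals are compared across arrays below. The promoters of C1qa, Csf1r and Tyrobp were not used here. In the RefSeq gene table of GRCm38.p6, C1qb, C1qc and C1qa follow each other with no other gene between them. Promoters of 5 of the 8 genes were taken from RefSeq (GRCm38.p6) and searched for GAGGAA on both strands, a purine-rich run with the GGAA core. Capitals mark GAGGAA or its reverse complement TTCCTC. The 250 bases before the gene start, read 5′ to 3′ on the gene's strand, were as follows for C1qb (chr4:136886201-136886450, minus strand) and C1qc (chr4:136892915-136893164, minus strand).
C1qb: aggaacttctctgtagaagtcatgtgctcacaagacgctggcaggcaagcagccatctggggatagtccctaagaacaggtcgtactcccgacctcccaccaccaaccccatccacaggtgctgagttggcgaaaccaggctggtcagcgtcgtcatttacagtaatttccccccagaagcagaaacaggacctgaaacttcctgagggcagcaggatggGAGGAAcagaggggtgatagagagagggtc
C1qc: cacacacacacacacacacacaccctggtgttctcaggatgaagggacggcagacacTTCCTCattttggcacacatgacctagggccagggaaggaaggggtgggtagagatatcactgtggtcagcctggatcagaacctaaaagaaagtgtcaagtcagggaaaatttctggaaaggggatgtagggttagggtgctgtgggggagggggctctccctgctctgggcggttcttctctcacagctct

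The match, the only one in each window, began 30 bases before the gene start in C1qb and 193 bases before it in C1qc. The windows of Ctss, Cd68 and Aif1 held the same letters in the 30-base stretches below (the Ctss and Cd68 windows also at a second place), each written on its gene's strand, from chr3:95526774-95526803 (plus strand), chr11:69666378-69666407 (minus strand) and chr17:35176042-35176071 (minus strand).
Ctss: atgaaagttcacTTCCTCattgtggatgct
Cd68: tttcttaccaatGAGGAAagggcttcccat
Aif1: ataggcacccagTTCCTCcatcctattgtt

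Windows of 300 bases (250 before to 50 after the start) held the letters in 5 of these 5 genes, and in 28.3% of all 32851 promoter windows of that length. The Ctss and C1qc windows also share the 12 letters CACTTCCTCATT, which were noticed on reading them and occur, on either strand, in 12 of all windows (0.0365%). These matches describe the letters only.

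The comparison asks whether microglial and C1q transcripts differ between the hemispheres 4 days after loss of the main eye's input to one of them. Values are MAS5 signals, a linear intensity per probe set, and differences are log2(signal + 15.3), deprived minus non-deprived, tested with limma and adjusted over 7453 probe sets above a filter on low signal. Of the 11 probe sets, 9 lay above the filter, covering 7 of the 8 genes. None of these 9 passed the test. Without a block limma called 0 of them at an adjusted p of 0.05, where it called 0 of 7453 probe sets in all (0%), and 0 of 9 had an unadjusted p under 0.05, against 2.67% of all. With the replicate number as a block the counts were 0 of 9 called, against 0% of all, and 0 of 9 at an unadjusted p under 0.05, against 7.03% of all. The groups overlapped for each of the 9, while they did not overlap for 2.04% of all probe sets. Of the 9, 5 lay above 0 and 4 below, with a median log2 difference of 0.03, against 0.02 for all probe sets.

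**Figure D1:**
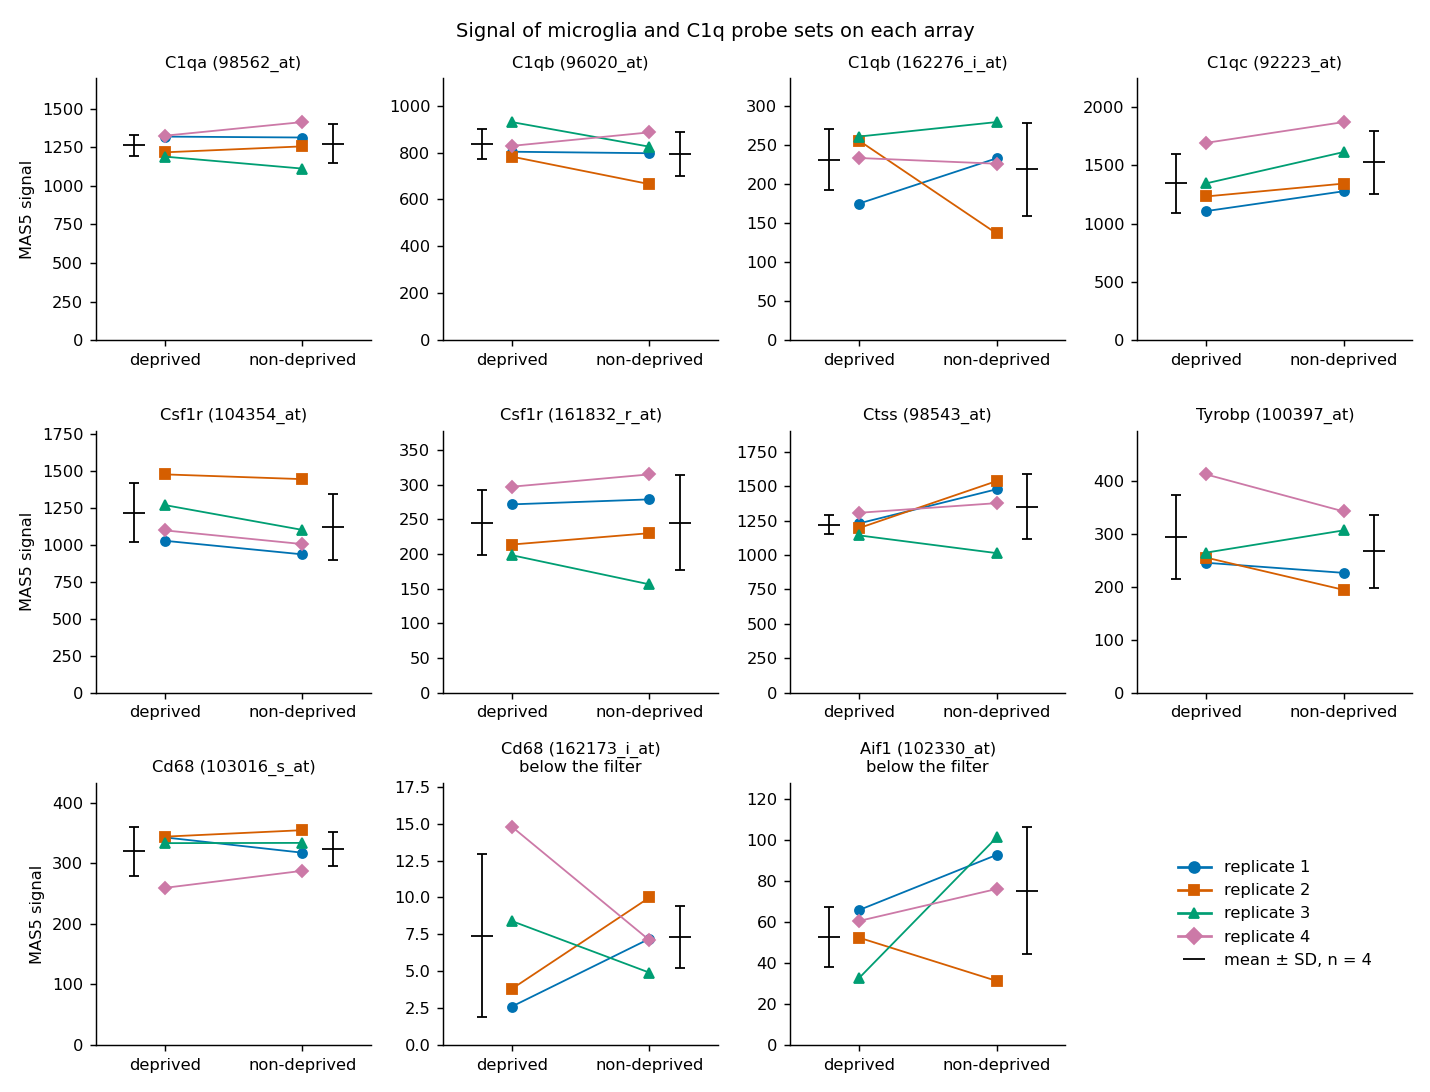
MAS5 signal (vertical axis, from 0) of the 11 probe sets on the 4 deprived and 4 non-deprived arrays, with a line joining arrays that share a replicate number and the mean ± SD beside each group. The groups overlap for each probe set that passed the filter. C1qc was lower and Csf1r (104354_at) higher in the deprived array of 4 of 4 numbers.

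C1qa encodes the A chain and was nearly level between hemispheres. Its signal was 1319.2, 1217.3, 1189.6 and 1324.9 in deprived replicates 1 to 4, against 1313.3, 1255.9, 1112.0 and 1413.2 in non-deprived replicates 1 to 4. The deprived values all lay inside the non-deprived range. The log2 difference was -0.01 ± 0.13 (SE, n = 4 each), with a 95% interval of -0.29 to 0.27 and an exact permutation p of 0.943 over 70 assignments. On the fold scale the interval ran from 0.819 to 1.21. With the block the log2 interval was -0.23 to 0.22.

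C1qc, the C chain, had the lowest ratio among C1q probe sets. Its signal was 1106.6, 1232.3, 1344.1 and 1691.3 in deprived replicates 1 to 4, against 1276.9, 1342.5, 1612.7 and 1869.5 in non-deprived replicates 1 to 4. Each deprived array lay below the non-deprived array of its number, by a log2 difference of -0.26 to -0.12, but deprived replicates 3 and 4 exceeded non-deprived replicate 1. Over all probe sets, 6.92% were lower in 4 of 4 pairs, and among the 9 it was this 1. The group means were 1344 ± 251 in deprived and 1525 ± 272 in non-deprived cortex (SD, n = 4 each), a log2 difference of -0.18 ± 0.17 (SE) and a fold of 0.881, with a limma adjusted p of 0.995 and an exact permutation p of 0.371. With the block the 95% interval was -0.40 to 0.04 and the limma adjusted p 0.705. Turning the signs of the 4 pair differences in all 16 ways gave an exact p of 0.125, which is the lowest value this test can return.

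C1qb, the B chain, lay slightly above 0 in both probe sets. The brighter, 96020_at, had 803.4, 782.6, 929.7 and 828.3 in deprived replicates 1 to 4, against 797.0, 665.3, 824.8 and 885.9 in non-deprived replicates 1 to 4. The deprived array was higher in 3 of 4 pairs and lower in number 4. The log2 difference was 0.08 ± 0.14 (SE, n = 4 each), a fold of 1.06, with a 95% interval of -0.23 to 0.38 and an exact permutation p of 0.486. With the block the interval was -0.18 to 0.33. The dimmer probe set, 162276_i_at, had 174.7 to 260.4 in deprived and 136.6 to 278.9 in non-deprived cortex, with a difference of 0.10 ± 0.23 (SE) that was positive in 2 of 4 pairs. Its 2 arrays numbered 2 stood at 255.3 in deprived and 136.6 in non-deprived cortex, a gap that 96020_at showed in the same direction at a smaller size.

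The differences of C1qc and of the brighter Csf1r probe set lay on opposite sides of 0. Csf1r encodes the receptor for the ligands CSF1 and IL-34, which keep microglia alive. Its brighter probe set, 104354_at, had 1027.5, 1476.7, 1269.1 and 1097.9 in deprived replicates 1 to 4, against 935.5, 1444.5, 1100.9 and 1005.1 in non-deprived replicates 1 to 4. Each deprived array was above its partner, with ratios of 1.10, 1.02, 1.15 and 1.09 for numbers 1 to 4, and again the groups overlapped widely. It was the 1 of 9 that was higher in 4 of 4 pairs, against 8.95% of all probe sets. The means were 1218 ± 200 in deprived and 1122 ± 226 in non-deprived cortex (SD, n = 4 each), and the log2 difference was 0.12 ± 0.17 (SE) with a limma adjusted p of 0.995, or 0.769 with the block. With the block its 95% interval was -0.10 to 0.35.

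The other Csf1r probe set did not share the pair pattern. 161832_r_at had 271.8, 213.8, 198.4 and 297.3 in deprived replicates 1 to 4, against 279.0, 230.2, 156.3 and 315.1 in non-deprived replicates 1 to 4. It was lower in 3 of 4 pairs, and only number 3 was higher. Its log2 difference, 0.03 ± 0.23 (SE, n = 4 each), had the same sign as that of 104354_at. The suffix _r marks a probe set for which the array's design rules were relaxed.

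Tyrobp encodes DAP12, an adaptor with an ITAM motif that relays signals of TREM2 and other receptors. Its signal was 245.4, 255.2, 264.5 and 412.4 in deprived replicates 1 to 4, against 226.3, 194.2, 306.6 and 342.4 in non-deprived replicates 1 to 4. Replicate 4 was the highest array of each group, and deprived replicate 4 stood far above the other 3. The log2 difference was 0.13 ± 0.23 (SE), positive in 3 of 4 pairs, with an exact permutation p of 0.6. Without deprived replicate 4 it was -0.03.

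The lysosomal genes lay at or below 0. Ctss encodes cathepsin S, a lysosomal cysteine protease that trims the invariant chain of MHC class II. It had 1230.1, 1196.0, 1143.5 and 1307.6 in deprived replicates 1 to 4, against 1478.7, 1538.1, 1014.4 and 1377.7 in non-deprived replicates 1 to 4. The deprived array was lower in 3 of 4 pairs and higher in number 3, where the non-deprived array had the lowest value of all 8. The means were 1219 ± 68.8 in deprived and 1352 ± 235 in non-deprived cortex (SD, n = 4 each), a log2 difference of -0.13 ± 0.15 (SE) and an exact permutation p of 0.4.

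Cd68 encodes a heavily glycosylated lysosomal membrane protein of macrophages. Its probe set 103016_s_at had 342.7, 343.9, 333.2 and 259.3 in deprived replicates 1 to 4, against 317.4, 354.6, 333.6 and 287.5 in non-deprived replicates 1 to 4. Replicate 4 was the lowest array of each group. The log2 difference was -0.02 ± 0.16 (SE, n = 4 each), with a 95% interval of -0.37 to 0.33, or -0.34 to 0.30 with the block. The other probe set, 162173_i_at, had 2.6 to 14.8 in deprived and 4.9 to 10.0 in non-deprived cortex. On each array it lay below that array's 10th percentile of signal, so it gives no usable level.

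Aif1, which encodes the calcium-binding protein Iba1 used to stain microglia, was dim. Its 1 probe set had 65.7, 52.3, 32.5 and 60.4 in deprived replicates 1 to 4, against 92.6, 31.2, 101.1 and 76.0 in non-deprived replicates 1 to 4. It was lower in 3 of 4 pairs and higher in number 2. All 8 values lay below the filter's signal of about 110. Fitted without the filter, its log2 difference was -0.36 ± 0.34 (SE), with a limma adjusted p of 0.974 and an exact permutation p of 0.371. The 10th percentile of signal, which bounds how well dim probe sets are measured, was 17.2 ± 2.68 in deprived and 13.5 ± 0.718 in non-deprived arrays (SD, n = 4). Their exact permutation p was 0.0286, and 4 against 4 arrays allow none lower.

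**Figure D2:**
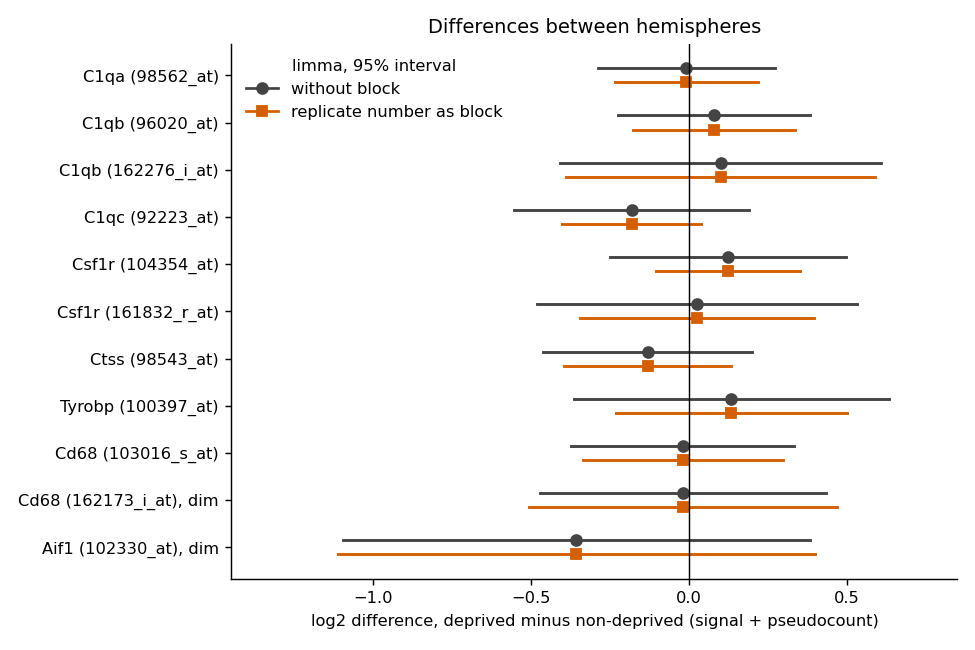
Log2 difference of signal + pseudocount, deprived minus non-deprived (horizontal axis), with the 95% interval from limma without a block (grey circles) and with the replicate number as a block (orange squares). Each interval includes 0. The block narrows those of the 9 probe sets above the filter, among them C1qc, where it is -0.40 to 0.04, and Csf1r (104354_at), where it is -0.10 to 0.35. Over all probe sets above the filter the median SE was 0.196 without the block and 0.151 with it.

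The differences of some members changed when a measure of RNA quality entered the fit. The signal of actin probes at the 3′ end over that at the 5′ end was 1.64 ± 0.239 in deprived and 1.39 ± 0.179 in non-deprived arrays (SD, n = 4, exact permutation p = 0.171). With its log2 as a covariate the difference of C1qc turned to 0.04 and that of Csf1r (104354_at) was 0.03, while that of Tyrobp was 0.45, that of Cd68 (103016_s_at) -0.14 and that of Ctss -0.18. With the Gapdh ratio, 0.842 ± 0.0345 in deprived and 0.898 ± 0.0543 in non-deprived arrays (SD, n = 4), C1qc was at -0.18 and Csf1r (104354_at) at 0.19. On average the actin ratio was higher and the Gapdh ratio lower in deprived arrays, so the 2 measures differed in opposite directions. The part of RNA quality in the members' differences was not tested further.

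For each of the 9 probe sets more of the variation lay between replicate numbers than between hemispheres. Values with no structure would also tend this way, because the numbers take more degrees of freedom than the hemisphere does. The medians of all probe sets stood the same way, 60.4% between numbers and 7.03% between hemispheres. For Csf1r (104354_at) replicate 2 was the highest and replicate 1 the lowest in each group, and for C1qc replicate 4 was the highest and replicate 1 the lowest in each group. The numbers stood in the same order of signal in both groups for 4 of the 9 probe sets, C1qa, C1qc, and both of Csf1r, against 9.97% of all probe sets.

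As a share of the log2 variation over the 8 arrays, replicate numbers held 91.8% for Csf1r (161832_r_at), 90.8% for Csf1r (104354_at), 89.1% for Cd68 (103016_s_at) and 87.7% for C1qa. They held 84.0% for C1qc and 83.1% for Tyrobp. C1qb followed with 66.7% (96020_at) and 39.4% (162276_i_at), and Ctss had 57.1%. The median of all probe sets was 60.4% and the 90th percentile 86.8%, and values with no structure would give about 42.9%, since numbers take that share of the degrees of freedom. Of the 9, 4 thus lay above the 90th percentile of all probe sets. The hemisphere held from 0.179% (C1qa and the dimmer Csf1r probe set) to 14.7% (C1qc), against a median of 7.03% over all probe sets.

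**Figure D3:**
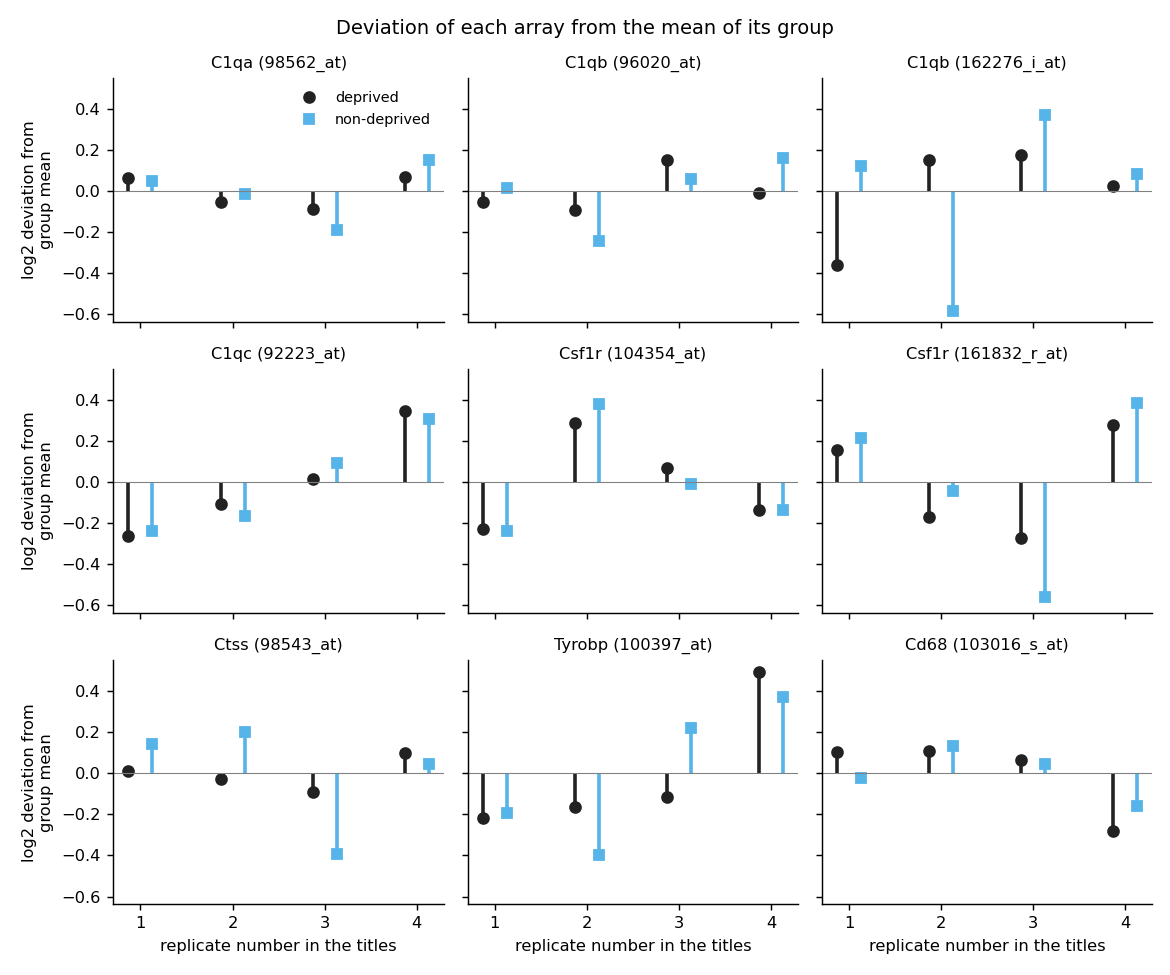
Log2 deviation of each array from the mean of its group (vertical axis) against the replicate number, which has no order, for the 9 probe sets above the filter in deprived (black circles) and non-deprived (blue squares) cortex. For C1qc and both Csf1r probe sets the circle and the square of a number lie close together and on the same side of 0 for most numbers, while Ctss and C1qb (162276_i_at) show wider gaps.

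**Figure D4:**
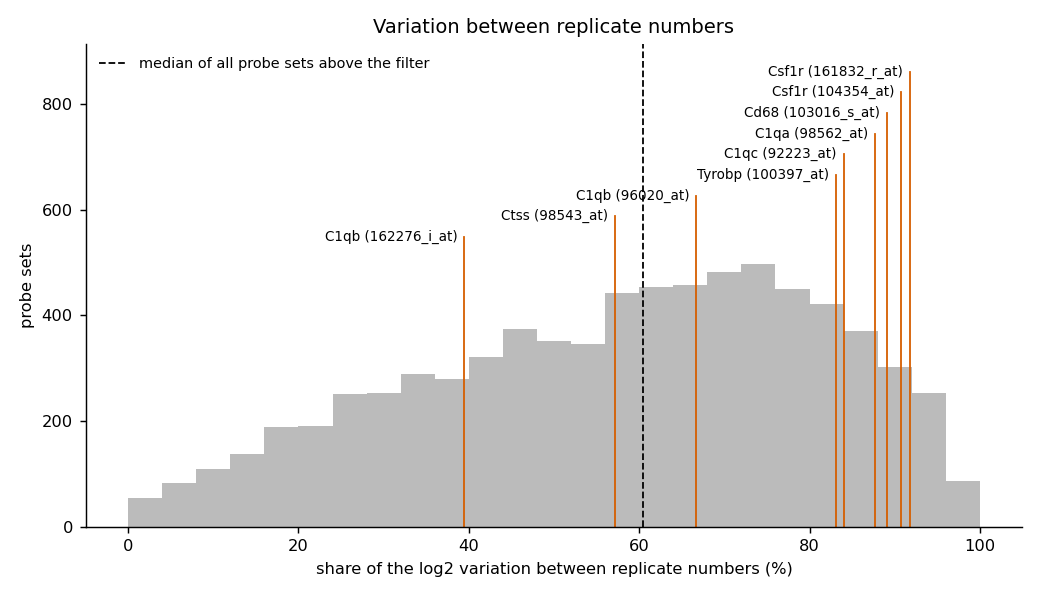
Histogram of the share of log2 variation between replicate numbers (horizontal axis, percent) over 7453 probe sets (vertical axis, number of probe sets), with orange lines at the 9 probe sets and a dashed line at the overall median of 60.4%. Csf1r, Cd68, C1qa, C1qc and Tyrobp lie to the right, between 83.1% and 91.8%.

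The genes did not share 1 pattern over the numbers. After the group means were subtracted, 9 of the 21 pairs of member genes had a Pearson r above 0 and 12 below, from -0.86 to 0.93. The highest was C1qc with Tyrobp (r = 0.93, Spearman rho = 0.93, 8 arrays), and r was 0.76 without the 2 arrays farthest from the median of C1qc. The lowest was Tyrobp with Cd68 (r = -0.86, rho = -0.81), which was -0.41 without the 2 farthest arrays. C1qc with Cd68 had r = -0.81 and -0.05 without the 2 farthest, so it rests on those arrays.

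Within C1q, C1qb and C1qc had r = 0.53, C1qa and C1qc 0.18, and C1qa and C1qb 0.05. With the mean of each number also subtracted, which leaves 1 difference per number, these became -0.12, -0.92 and 0.49. C1qa was closest to Ctss among the members, with r = 0.74, and 0.53 without the 2 farthest arrays. These are descriptions with no p, because arrays that share a number are not independent and all genes of an array share its scaling.

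The same numbers differed in other measures. The summed signal of the 9 astrocyte markers on the array was highest in replicate 2 of each group (27337 in deprived and 28121 in non-deprived cortex), as was Csf1r (104354_at), and lowest in replicate 1 (19233 in deprived and 18886 in non-deprived cortex), as was that probe set. The other Csf1r probe set, 161832_r_at, was instead highest in replicate 4 and lowest in replicate 3 of each group. Replicate 4 had the lowest summed signal of the 11 neuronal markers in each group (39131 in deprived and 39252 in non-deprived cortex), and the highest C1qc and Tyrobp. Replicate 3 was close to it in that sum (40881 and 40082). The neuronal sum was highest in replicate 2 of each group (42955.5 in deprived and 46109.5 in non-deprived cortex), as were the astrocyte sum and Csf1r (104354_at). The sums of oligodendrocyte, endothelial, perivascular macrophage and thalamus markers shared neither their highest nor their lowest number between groups. That of blood shared only its lowest, replicate 2 (10298 in deprived and 10459.5 in non-deprived cortex). The actin ratio was 1.33 in deprived and 1.26 in non-deprived replicate 4, and 1.25 to 1.91 over the 8 arrays. Their part in the pattern over numbers was not tested.

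Genes outside the members with a like pattern were sought among 5668 named genes above the filter. With the mean of the z-scored C1qa, C1qb and C1qc values, after subtraction of group means over 8 arrays, the highest correlations were those of Ssbp4 (r = 0.96), Mrpl50, Twist2, Commd2, Ppp1r7, Baiap2, Syngr1, Arl3, Umpk-ps and Dazl (0.93 to 0.91), and 14 genes exceeded 0.9. With the mean of Csf1r, Ctss, Tyrobp and Cd68 the highest were Selenot and Tbr1 (each 0.98), Rgs8 (0.97), Tbc1d14, Osbpl1a, Cx3cl1, Zfp91, Bcl6, Eps15 and Hnrnpk (0.96 to 0.95), and 51 genes exceeded 0.9. None of these 20 genes is on the microglia lists described next. Tbr1, a transcription factor of deep-layer cortical neurons, is on the neuronal marker list. How many genes would exceed 0.9 by chance was not worked out, so the 14 and 51 are not read as an excess. The 4 genes of the second mean had r among themselves from -0.86 (Tyrobp with Cd68) to 0.53 (Csf1r with Cd68). A gene close to their mean is therefore not shown to be like each of them.

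The rest of the pathway was followed through 8 lists, in which 0 genes passed in either direction over all probe sets, with the block or without it. Of 22 further complement components, 11 were on the array and 3 above the filter. These 3 lay at or above 0, with a list median of 0.13 against 0.02 over all 5675 genes. The median was 0.03 under quantile scaling and under cyclic loess, -0.02 without deprived replicate 1 and -0.01 without the filter. C1ra, a protease of the C1 complex, had 148 ± 68.0 in deprived and 118 ± 24.5 in non-deprived cortex (SD, n = 4). C8g, a chain of the membrane attack complex, had a log2 difference of 0.13 ± 0.23 (SE), and Cfp, encoding properdin, 0.00 ± 0.27. C3 and C4b had no probe set annotated to them alone in the table used and were not analysed here.

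Complement receptors and regulators had 9 of 20 genes on the array above the filter, 7 above 0 and 2 below, with a median of 0.10. Lrp1, a receptor that clears many ligands including complement complexes, had 2376 ± 163 in deprived and 2152 ± 229 in non-deprived cortex (SD, n = 4), higher in 4 of 4 pairs, with a log2 difference of 0.15 ± 0.13 (SE). C5ar1, the C5a receptor, had 0.14 ± 0.18 (SE) and Itgax, a chain of complement receptor CR4, 0.31 ± 0.35 (SE). Itgam and Itgb2, the chains of the phagocytic receptor CR3, were both below the filter, at 38.7 ± 8.80 and 43.1 ± 24.2 in deprived against 66.1 ± 34.9 and 30.3 ± 15.8 in non-deprived cortex (SD, n = 4).

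Around Csf1r, 7 of 14 genes on the array were above the filter, 4 above 0 and 3 below, with a median of 0.11. Csf1, its ligand, had 463 ± 147 in deprived and 375 ± 40.5 in non-deprived cortex (SD, n = 4), with the deprived array higher in 2 of 4 pairs. Kitl, the ligand of the related receptor Kit, had 0.40 ± 0.25 (SE) and Csf3r, the receptor of G-CSF, 0.37 ± 0.27 (SE). Without the filter the list's median was 0.31, and with the Gapdh covariate -0.03.

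Among ITAM adaptors, receptors and kinases, which work with or beside Tyrobp, 10 of 16 genes on the array were above the filter, 7 above 0 and 3 below, with a median of 0.14, or -0.11 with the Gapdh covariate. Among those above the filter, the values with the smallest p were those of Grb2, a general signalling adaptor, at -0.18 ± 0.14, Src at -0.50 ± 0.39, and Fcgr1, a high-affinity IgG receptor, at 0.27 ± 0.22 (log2 difference ± SE, n = 4 each). Below the filter Fcgr2b (0.74), Btk (-0.93) and Ptpn6 (0.76, log2 differences) had smaller unadjusted limma p (0.0203, 0.0418 and 0.0487). Their adjusted p was 0.974 each. Fcer1g, the other ITAM adaptor of myeloid cells, was dim, at 28.8 ± 20.9 in deprived and 19.7 ± 9.45 in non-deprived cortex (SD, n = 4).

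Of 28 further microglia and macrophage genes on the array, 15 lay above the filter, 7 above 0 and 8 below, with a median of -0.01. The median was -0.07 under quantile scaling, -0.08 under cyclic loess, -0.12 with the actin and -0.09 with the Gapdh covariate, and 0.04 without non-deprived replicate 1. Rgs10, a regulator of G-protein signalling enriched in microglia, had 374 ± 138 in deprived and 484 ± 42.5 in non-deprived cortex (SD, n = 4). Coro1a, an actin-binding protein of leukocytes, had 1056 ± 103 and 1226 ± 71.4 in deprived and non-deprived cortex (SD, n = 4) and was lower in 4 of 4 pairs. Laptm5, a lysosomal membrane protein of blood-derived cells, had a log2 difference of -0.28 ± 0.17 (SE), and Cx3cr1, the fractalkine receptor of microglia, 0.18 ± 0.24 (SE).

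Of the myeloid transcription factors, 10 of 13 on the array lay above the filter, 7 above 0 and 3 below, with a median of 0.11. Spi1, which encodes PU.1, had 145 ± 29.7 in deprived and 119 ± 36.2 in non-deprived cortex (SD, n = 4), a log2 difference of 0.27 ± 0.26 (SE). Irf8, a partner of PU.1, had 0.30 ± 0.23, Mef2a 0.19 ± 0.15 and Cebpa 0.19 ± 0.16 (log2 difference ± SE).

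Lysosomal proteases, their cystatin inhibitors and class II genes had 25 of 32 genes on the array above the filter, 13 above 0 and 12 below, with a median of 0.01. Ctsf, a cathepsin related to Ctss, had 1301 ± 188 in deprived and 1044 ± 145 in non-deprived cortex (SD, n = 4), higher in 4 of 4 pairs, and Hexa, a lysosomal hexosaminidase chain, 577 ± 62.1 and 493 ± 45.4 in deprived and non-deprived cortex. Cd63, a lysosomal tetraspanin, had -0.24 ± 0.16 (log2 difference ± SE). Ctsd, the aspartic protease cathepsin D, had 0.20 ± 0.15, Cst3, the secreted inhibitor cystatin C, -0.10 ± 0.13, and Cd74, the invariant chain that cathepsin S cleaves, 0.04 ± 0.25 (log2 difference ± SE).

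Genes of reactive and phagocytic microglia had 9 of 26 genes on the array above the filter, 6 above 0 and 3 below, with a median of 0.02. The 17 below the filter include the cytokines and chemokines Il1a, Il1b, Il6, Tnf, Ccl2, Ccl3 and Ccl4. Gas6, a bridging ligand that lets phagocytes bind dying cells, had -0.18 ± 0.20 (SE), and Apoe, an apolipoprotein made mainly by astrocytes and raised in reactive microglia, -0.07 ± 0.14 (SE). Itgax, also counted here, is given above.

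**Figure D5:**
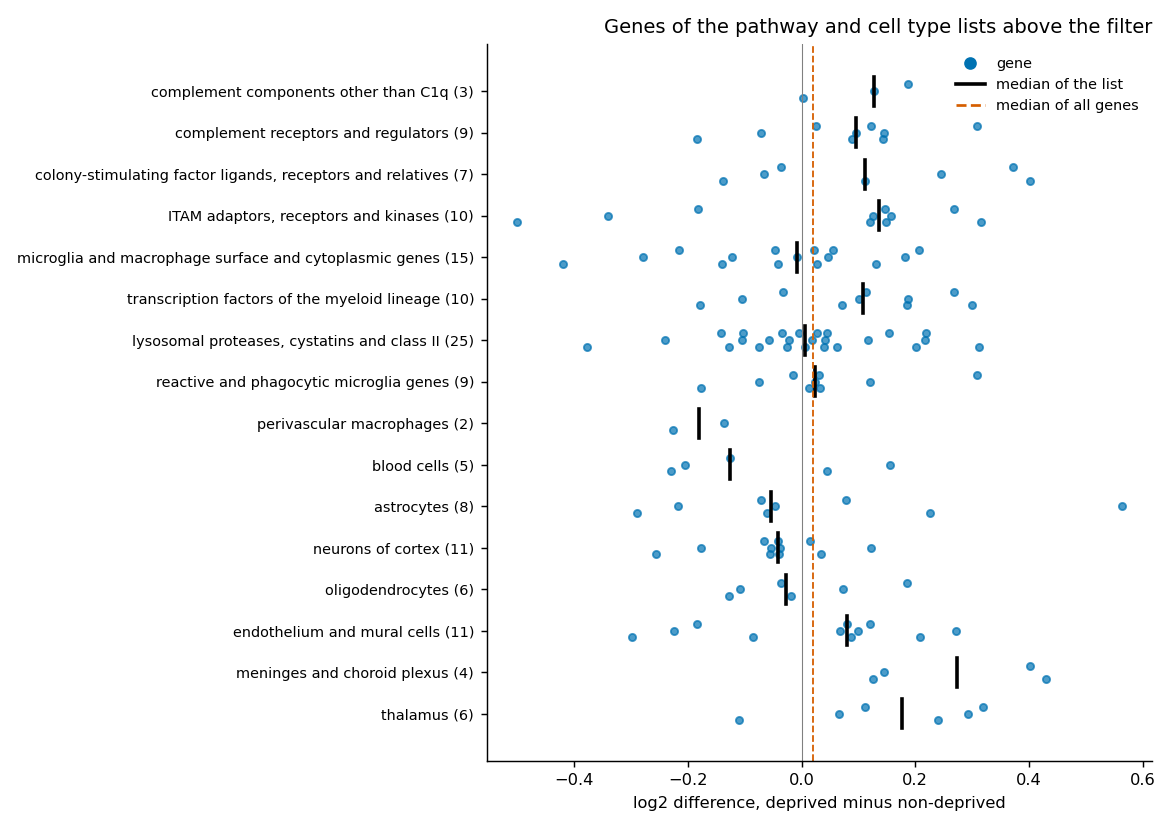
Log2 difference, deprived minus non-deprived (horizontal axis), of each gene above the filter in the 16 lists, with the number of genes in brackets, a black bar at each list's median and a dashed line at the median of all genes, 0.02. The microglia and macrophage list has its median at -0.01 and the lysosomal list at 0.01.

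The tissue and the other cells it could hold were read from 8 marker lists. The neuronal markers were all present, 11 of 11 on the array lying above the filter, with 3 above 0, 8 below and a median of -0.04. Their smallest p belonged to Nefm, a neurofilament chain, at -0.18 ± 0.16, Neurod6, a transcription factor of cortical excitatory neurons, at -0.26 ± 0.29, and Eno2, neuronal enolase, at -0.07 ± 0.12 (log2 difference ± SE). Astrocyte markers (8 genes) had a median of -0.05, with S100b at -0.29 ± 0.17, the glutamine synthetase gene Glul at 0.56 ± 0.55 and the gap junction gene Gja1 at 0.23 ± 0.23 (SE). Oligodendrocyte markers (6) had a median of -0.03, with the myelin genes Mobp at 0.18 ± 0.19, Mog at -0.13 ± 0.18 and Mag at -0.11 ± 0.16 (SE). Endothelial and mural markers (11) had a median of 0.08, which was -0.10 under a stricter filter, -0.03 with the Gapdh covariate and -0.02 without deprived replicate 2 or 3, with the tight junction gene Cldn5 at -0.30 ± 0.20 and the smooth muscle genes Tagln at 0.27 ± 0.24 and Acta2 at -0.18 ± 0.25 (SE). The members are also made by macrophages outside the brain tissue proper. Of 6 perivascular macrophage markers on the array, Folr2 (-0.23 ± 0.35, SE) and Stab1 (-0.14 ± 0.22, SE) lay above the filter and Mrc1, Lyve1, Pf4 and Cbr2 below it. Their summed signal was 440 to 612 in deprived and 490 to 562 in non-deprived cortex. Blood was present on all arrays. Hba-a1, a haemoglobin chain, averaged 9884 ± 2571 in deprived and 10820 ± 2964 in non-deprived cortex (SD, n = 4), another chain, Hbb-b2, had a log2 difference of -0.23 ± 0.23 (SE) and the neutrophil protease gene Elane -0.20 ± 0.21 (SE). The median of the blood list was -0.13 over 5 genes, and the blood list's summed signal overlapped between groups, with 10298 to 17259 in deprived and 10459.5 to 18197 in non-deprived cortex.

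Markers of tissue next to cortex mostly lay above 0. Thalamus markers had a median of 0.18 over 6 genes, with 5 above 0 and 1 below, while 3060 of all 5675 genes lay above 0. Of the 6, 3 (Tcf7l2 at 0.32, Calb2 at 0.24 and Zic1 at 0.29, log2) were higher in 4 of 4 pairs, against 8.95% of all probe sets. Lef1 was at 0.11, Prkcd at 0.07 but lower in 3 of 4 pairs, and Rora at -0.11. The list's summed signal was 2672 to 3436 in deprived and 2521 to 2901 in non-deprived cortex. Without deprived replicate 2 the median was 0.03. Of 10 genes of meninges and choroid plexus on the array, the 4 above the filter lay above 0 with a median of 0.27, or 0.18 without the filter. Among the 4 were the growth factor Igf2 with 2176 ± 332 in deprived and 1624 ± 349 in non-deprived cortex (SD, n = 4) and the proteoglycan Dcn with 464 ± 78.5 and 349 ± 75.5 in deprived and non-deprived cortex. The collagen gene Col1a2 had a log2 difference of 0.12 ± 0.16 (SE). Ttr, Kl and Folr1 of choroid plexus were below the filter, as were Lum, Col3a1 and Aqp1, the last at a log2 difference of -0.09. None of these genes passed over all probe sets, and the part of such tissue in the members' values was not tested.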

How the data were processed

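Total RNA of visual cortex was labelled with biotin and hybridised to 1-colour short-oligonucleotide arrays, per the labels' protocols. Each deposited value is a probe set's signal, an intensity on a linear scale. Per the submitters' processing notes the software was MAS5, with no version or settings stated. There were 12488 probe sets, and 0 sample columns were left unused. Median signal per array was 183 to 209, and the number of arrays limits the precision.

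Arrays were rescaled to 1 trimmed mean (2% from each end), 66 controls were dropped, and signals entered as log2(signal + 15.3). The added 15.3 is the pooled 10th percentile of signal, so differences of dim genes are understated. Probe sets with a mean log2 value above the 40th percentile were kept (7453 of 12422). Symbols came from probe sets with 1 symbol (10833, against 396 with several and 1193 with none), of which 10817 were updated through Entrez identifiers to the GRCm38.p6 gene table. In lists and correlations a gene is represented by its brightest probe set.

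Hemispheres were tested against each other in limma 3.58.1 under R 4.3.3 (lmFit, eBayes with an intensity trend, two-sided, Benjamini-Hochberg adjustment), with exact two-sided permutation tests for single values. These permutation tests treat the arrays as unpaired. Deviations from group means correlated at 0.158 to 0.422 between same-numbered arrays, each above 0.1, against -0.27 to 0.12 between others, so the numbers were taken to pair the samples. A permutation p for correlations between members, part of the original plan, is therefore not given. Lists are described by counts and medians. The text names each member, the 3 genes of each list with the smallest p, a fixed set of genes (C3, C4b, Itgam, Itgb2, Fcer1g, Csf1, Cx3cr1, Ctsd, Cst3, Cd74 and Spi1, with 1 more that is not reported here) and the 10 genes most like each pattern. The members and lists were chosen with earlier results of these data known. Code was tested on simulated data. Figures used matplotlib 3.10.9 in Python 3.11.15.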

Additional observations from a re-analysis of the deposited data

Results flagged for a closer look

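Each of the 11 probe sets was examined in each hemisphere (22 groups of 4 arrays) for a single array set apart, and 2 groups had one. Chance alone gives about 1 in 20 groups, or 1.1 here. In both it was deprived replicate 4. On the log2(signal + 15.3) scale its gap to the nearest array was 0.857 of the group's range for Tyrobp, with a signal of 412.4 against 245.4 to 264.5 on the other deprived arrays. For Cd68 (103016_s_at) the gap on that scale was 0.887, with a signal of 259.3 against 333.2 to 343.9. Non-deprived replicate 4 was likewise the highest array of its group for Tyrobp (342.4) and the lowest for Cd68 (287.5). Deprived replicate 4 also had the highest 10th percentile of signal, 21.1 against 12.6 to 16.4 on the other 7 arrays.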

How the results depend on the processing

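Under 21 alternatives the count of probe sets called stayed at 0 in each direction, and that of members called at 0, also with the replicate block, as a fixed factor or a random effect, which gave C1qc -0.18 with an adjusted p of 0.705 and 0.731. The block changed no call. Of 228 member values under alternatives, a stricter filter leaving out Tyrobp and the dimmer probe sets of C1qb and Csf1r, 29 changed sign and 0 crossed the threshold. Csf1r (104354_at) and Aif1 kept their sign in each, at 0.03 to 0.25 and -0.65 to -0.20 with an array left out. Quantile scaling gave C1qa 0.0056 and Csf1r (161832_r_at) -0.0499, and cyclic loess 0.0042 and -0.0381. Array weights gave Csf1r (161832_r_at) -0.0599 and Cd68 (103016_s_at) 0.0367. The actin covariate gave C1qa 0.0111, C1qc 0.0421 and Cd68 (162173_i_at) 0.10. The Gapdh covariate gave C1qa 0.0419, C1qb -0.0209 (96020_at) and -0.25 (162276_i_at), Ctss 0.024 and Cd68 (162173_i_at) 0.17. With an array left out, C1qa lay at -0.0712 to 0.0427, C1qb at -0.0015 to 0.13 and (162276_i_at) -0.0941 to 0.2237, Csf1r (161832_r_at) at -0.16 to 0.15, Tyrobp at -0.032 to 0.26, and Cd68 at -0.0722 to 0.0731 and (162173_i_at) -0.17 to 0.0844. The cause of these changes was not tested. C1qc lay at -0.30 to -0.08 and Ctss at -0.26 to -0.06. Of 372 list medians under alternatives, 13 moved by more than the spread between arrays, in the lists of microglia and macrophages, colony-stimulating factors, ITAM genes, endothelium, neurons (-0.16 with the actin covariate), thalamus and all genes. The medians of the complement component, colony-stimulating factor, ITAM, microglia and macrophage, lysosomal, reactive, blood, astrocyte, oligodendrocyte and endothelial lists turned sign under at least 1 alternative. Pairs of members with r above 0 were 8 or 9 of 21 in each setting but were not the same pairs: with the replicate block 7 of 21 turned sign, among them C1qa with C1qc (0.18, and -0.92 with the block), with Tyrobp (0.21 and -0.91) and with Csf1r (-0.47 and 0.68).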
